A study of Mus musculus with 2 samples.

Results

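The nuclear genes for subunits of the mitochondrial respiratory chain and of ATP synthase were examined in total RNA from G1E-ER4 cells. Members were the protein-coding genes whose GENCODE M21 symbol starts with Ndufa, Ndufb, Ndufc, Ndufs or Ndufv and a digit, with Uqcr, with Cox4 to Cox8 or with Atp5, or is Sdha, Sdhb, Sdhc or Sdhd. The choice used gene names and no measured value. It matched 85 genes, of which 84 are in the gene tables, out of 21461 nuclear protein-coding genes. The other match is a second annotated Atp5o locus, which was not analysed here. The members are 37 genes named for complex I, 4 for complex II, 8 for complex III, 18 for complex IV and 17 for complex V.

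G1E-ER4 is an immortalized mouse erythroid line, labelled as male, postnatal and C57BL/6J, in which Gata1 function is lacking and is given back by a GATA1 that responds to estradiol. Both cultures had received 10 nM 17β-estradiol for 24 h, which starts erythroid differentiation. They form a single group of 2 biological replicates, with no untreated culture, so the values are levels in treated cells and nothing here is a response to estradiol or to GATA1. All 8 erythroid markers, among them Hbb-bs, Hba-a2, Alas2, Klf1 and Gfi1b, were detected, and 0 of 17 markers of muscle, brown fat, testis, lung, liver and macrophages were. Of these 17, 15 had no count in either library, among them the muscle genes Ckm and Myh1, the brown fat gene Ucp1 and the testis gene Ldhc, and the 17 together summed to 0.45 TPM in replicate 1 and 0.35 TPM in replicate 2.

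The respiratory chain lies in the inner mitochondrial membrane. Complex I takes electrons from NADH and complex II from succinate, complex III passes them to cytochrome c and complex IV to oxygen, and ATP synthase (complex V) uses the proton gradient that complexes I, III and IV build. Complex II is encoded wholly in the nucleus, whereas the other complexes also contain subunits encoded by mitochondrial DNA. Maturing red cells use mitochondria for heme synthesis and lose them before they enter the circulation, and mature red cells live by glycolysis.

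Levels are given as TPM, the usual measure of transcript abundance per length, which divides reads by gene length and is a share of the whole library. The libraries held 50277914 and 47478888 expected counts, with 14373925 and 13901316 of them on nuclear protein-coding genes. The non-coding gene Gm42418 took 490867 and 475091 TPM, so nuclear protein-coding genes held 22.7% and 22.9% of all TPM, and rescaling to them raises each level 4.41-fold and 4.37-fold. The members held 88799 and 84829 counts, or 1.68% ± 0.0200 of nuclear protein-coding TPM (SD, n = 2). In total RNA, fewer cells of a kind and less RNA per cell cannot be told apart.

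Nearly the whole set was expressed. Detection was set at 1 TPM in each library, and 79 of 84 members (94.0%) passed, where 40.2% of all nuclear protein-coding genes did. Every gene named for complexes I, II, III and V passed, and 13 of the 18 named for complex IV did. The median over all 84 members was 32.0 ± 0.852 TPM (SD, n = 2). The 79 detected members had a median of 35.5 TPM, where the 8620 detected nuclear protein-coding genes had 9.76 TPM, and 67 members stood above 9.76 TPM. The 77 mitochondrial ribosomal protein genes, all detected, had a median of 13.9 ± 0.460 TPM, and the 76 cytosolic ones 266 ± 8.55 TPM (SD, n = 2). Members were spread over 209-fold on all transcripts, from 2.62 TPM for Ndufa11, an accessory subunit of complex I, to 547 TPM for Atp5b. Of those detected, 12 were below 10 TPM and 6 above 100 TPM. On transcripts annotated as protein_coding the spread was narrower. There Atp5b had 122 TPM, Ndufa4l2 was highest with 155 TPM and Ndufa11 stayed lowest. On all transcripts, the SD of the log2 level among detected genes was 1.495 for the members and 1.68 for all detected nuclear protein-coding genes. It was 1.06 for mitochondrial and 1.23 for cytosolic ribosomal protein genes. Members are short genes, since 48.1% of those detected have an average transcript under 700 nt, where 3.87% of all detected nuclear protein-coding genes do. Across the detected members, level and length had a Spearman's rho of -0.0253, a description over genes that share both libraries.

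**Figure D1:**
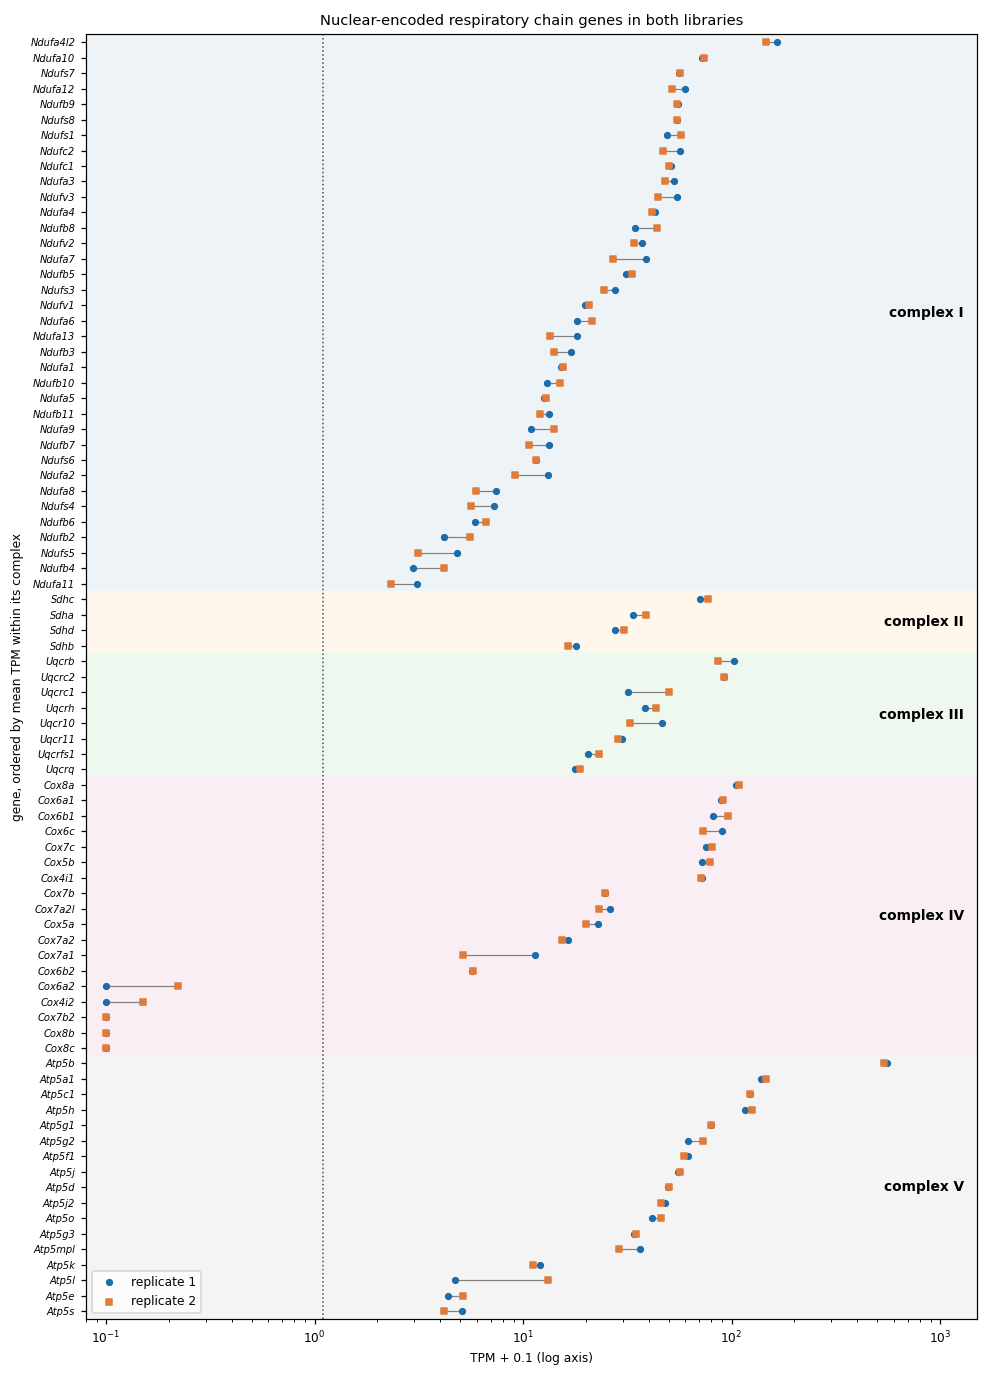
TPM + 0.1 of 83 of the 84 members on a log axis, by complex and ordered by mean within each, with circles for replicate 1 and squares for replicate 2. The dotted line marks a TPM of 1, and the 5 genes left of it all belong to complex IV. Atp5b lies far to the right, and Atp5l and Cox7a1 have the longest lines between the 2 libraries among detected genes.

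By summed TPM the order of the complexes was V, I, IV, III and II. Complex V genes summed to 1431 ± 13.4 TPM, complex I genes to 1163 ± 44.2, complex IV genes to 691 ± 1.23, complex III genes to 376 ± 3.25 and complex II genes to 156 ± 9.73 (SD, n = 2 for each). Each step of this order was larger than the spread of either neighbour, and both libraries gave it. The sums are not doses of complex, since the complexes differ in their number of genes. With the sums restricted to transcripts annotated as protein_coding, complex I led with 943 TPM and complex V followed with 853 TPM, and Atp5b alone had 122 TPM on such transcripts in place of 547 TPM on all.

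ATP synthase consists of an F1 head that makes ATP, a central stalk, a peripheral stalk and a membrane part with a ring of c subunits. Atp5b (chromosome 10, 128083273 to 128090391, mm10), the catalytic beta subunit, had 554 TPM in replicate 1 and 541 TPM in replicate 2 and 12490 and 12247 counts. It ranked 41st by mean TPM among all nuclear protein-coding genes. Atp5a1, the alpha subunit that pairs with beta in equal number in the enzyme, had 137 and 146 TPM. Atp5c1, the gamma subunit of the central stalk, had 123 TPM in both libraries. The ratio of Atp5b over Atp5a1 was 3.87 ± 0.225 on TPM (SD, n = 2).

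Most Atp5b TPM lay on short transcripts. The leading Atp5b transcript was Atp5b-206, a processed transcript of 478 nt, with 55.4% of Atp5b TPM in replicate 1 and 50.8% in replicate 2. The full-length coding Atp5b-201 held 20.9% and 23.7% of TPM, but 6876 and 7214 of the counts, more than any other Atp5b transcript. In all, 79.1% and 76.3% of Atp5b TPM, and 44.9% and 41.1% of its counts, lay on transcripts not annotated as protein_coding. On protein_coding transcripts alone the ratio of Atp5b over Atp5a1 was 1.28 ± 0.0857, and on counts, which are not divided by length, it was 1.51 ± 0.00839 (SD, n = 2). Short transcripts that lie within a longer one share its reads, so the division between Atp5b-206 and Atp5b-201 is an estimate of the quantifier.

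The smallest subunit of the head and stalk was far lower. Atp5e, the epsilon subunit, had 4.25 and 5.04 TPM from 56 and 96 counts, and Atp5b over Atp5e was 119 ± 16.4 on TPM and 31.6 ± 2.88 on protein_coding transcripts (SD, n = 2). Atp5d, the delta subunit, had 49.2 and 49.8 TPM. The 4 peripheral stalk genes lay closer together, from 43.6 TPM for Atp5o, which encodes the oligomycin sensitivity protein, to 121 ± 6.63 TPM for Atp5h, the d subunit. On protein_coding transcripts alone the lowest of the 4 was Atp5j with 7.74 TPM beside 100.6 TPM for Atp5h. Among the small membrane subunits, Atp5j2 had 46.7 ± 1.36 and Atp5mpl 32.4 ± 5.24 TPM, whereas Atp5k had 11.5 ± 0.594 TPM (SD, n = 2 for each). Atp5s, a coupling factor B gene that is no structural subunit, had 4.97 and 4.08 TPM, and Atp5s was lowest of complex V by the mean but not in replicate 1, where Atp5e and Atp5l were lower. The inhibitor of the enzyme, Atpif1, is no member and had 246 ± 4.24 TPM, above every complex V gene but Atp5b.

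The c ring is encoded by 3 genes that share a mature protein and differ in their import signal. Atp5g1 had 79.7 TPM in both libraries, Atp5g2 had 61.5 and 72.9 TPM and Atp5g3 had 34.0 and 34.6 TPM. Their shares of the family were 44.0% ± 2.07, 37.0% ± 2.72 and 18.9% ± 0.655 (SD, n = 2). Atp5g3 was lowest in both libraries. The order of Atp5g1 and Atp5g2 depends on how reads were divided. The pseudogene Gm10175, which holds the whole 441 nt transcript Atp5g2-201 at 100% identity, had 24.6 and 37.7 TPM. With these added, Atp5g2 had 86.1 and 110.6 TPM, above Atp5g1. Their last coding bases before the stop codon are shown because they encode the same residues with different bases, with capitals at the positions where the 3 genes are not all alike (GENCODE M21 transcripts, mm10, minus strand for each).
Atp5g1 (chr11:96073107-96073166): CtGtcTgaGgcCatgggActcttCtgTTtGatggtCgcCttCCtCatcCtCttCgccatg
Atp5g2 (chr15:102663017-102663076): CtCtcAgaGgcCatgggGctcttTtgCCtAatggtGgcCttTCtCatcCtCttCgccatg
Atp5g3 (chr2:73908596-73908655): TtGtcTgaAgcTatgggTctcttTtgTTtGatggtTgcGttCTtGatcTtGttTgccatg
Of these 60 bases, 18 differ in at least one of the genes. Over the last 225 coding bases Atp5g1 and Atp5g2 differ at 34 positions, Atp5g1 and Atp5g3 at 45, and Atp5g2 and Atp5g3 at 48.

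Within complex I, the gene with the highest level was a paralogue that is not a standard subunit. Ndufa4l2 (chromosome 10, 127514967 to 127517154, mm10), known from other cells as a target of the hypoxia factor HIF1, had 164 TPM in replicate 1 and 146 TPM in replicate 2, from 4559 and 3821 counts. Its paralogue Ndufa4 (chromosome 6), first assigned to complex I and later found in complex IV, had 43.0 and 41.4 TPM. Ndufa4l2 was 3.67 ± 0.215 times Ndufa4 on TPM and held 78.6% ± 0.989 of the pair (SD, n = 2). It ranked 194th by mean TPM among nuclear protein-coding genes. Each of the pair has a single transcript in the tables, so this ratio does not rest on a division between isoforms. With both counted in complex IV, that complex summed to 888 TPM and complex I to 966 TPM.

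The sequences show how far a read of one gene resembles the other. Over 246 aligned coding bases they differ at 90 positions, an identity of 63.4%. The stretch of 60 aligned coding bases in which they are most alike is shown with differing bases in capitals. Each stretch crosses a splice junction, so its coordinates span an intron (GENCODE M21, mm10).
Ndufa4l2 (chr10:127515476-127516312, plus strand): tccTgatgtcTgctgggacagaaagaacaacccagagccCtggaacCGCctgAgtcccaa
Ndufa4 (chr6:11905215-11906031, minus strand): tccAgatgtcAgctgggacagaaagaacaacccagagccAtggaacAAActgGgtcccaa
Even here 7 of 60 bases differ.

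Core subunits of complex I lay above accessory ones at the median, with overlapping ranges. The 7 nuclear core subunits, which carry the flavin and the iron-sulfur clusters and are kept from bacteria to mammals, had a median of 44.9 ± 2.16 TPM and ranged from 20.1 to 56.2 TPM, 2.79-fold. The 28 accessory subunits had a median of 14.1 ± 0.209 TPM and ranged from 2.62 to 72.8 TPM, 27.8-fold (SD, n = 2). On protein_coding transcripts alone the core genes ranged more widely, from 4.82 TPM for Ndufs3 to 54.8 TPM for Ndufs8, 11.4-fold. On all transcripts Ndufs7 (56.0 and 56.4 TPM) and Ndufs8 (54.9 and 54.6 TPM), core subunits next to the quinone site, were the highest core genes by the mean, although Ndufs1, at 48.9 and 56.9 TPM, stood above both in replicate 2. Ndufv1, which binds NADH, was the lowest core gene by the mean with 19.7 and 20.6 TPM. Among accessory genes, Ndufa10 led with 72.2 and 73.4 TPM, followed by Ndufa12 with 59.8 and 51.9 TPM. Their order turns on protein_coding transcripts alone, where Ndufa10 had 33.9 and 31.0 TPM and Ndufa12 59.8 and 50.8 TPM. Ndufa11 was lowest by the mean with 3.01 and 2.22 TPM, and Ndufb4, with 2.86 and 4.05 TPM, was below it in replicate 1. By count Ndufa11, with a transcript of 2661 nt, was not lowest, with 252 and 177 beside 62.9 and 41.8 for Ndufs5. The ratio of Ndufa10 over Ndufa11 was 28.5 ± 6.42 on TPM, 12.6 ± 1.93 on protein_coding transcripts and 13.7 ± 2.81 on counts (SD, n = 2).

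Complex II has 4 genes. Sdhc, one of its membrane anchors, had 70.2 and 77.3 TPM, and the other anchor, Sdhd, had 27.5 and 30.3 TPM. The flavoprotein Sdha had 33.5 and 38.8 TPM and the iron-sulfur subunit Sdhb 17.9 and 16.4 TPM. On TPM Sdhc exceeded Sdhd 2.55-fold in both libraries and Sdhb 4.33 ± 0.569-fold (SD, n = 2), although the enzyme holds each subunit once. On protein_coding transcripts these ratios were 2.55 and 5.72, but on counts, which are not divided by length, 1.42 and 2.71. The 298 nt form Sdhc-203 held 37.9% and 42.25% of Sdhc TPM from 157 and 180 counts. By TPM Sdhc stood above the other genes in both libraries, but Sdha had more counts, with 2112 and 2084 beside 1554 and 1515. Sdhb was lowest by TPM and by count.

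In complex III the highest genes were Uqcrb, a small subunit, with 103 and 85.8 TPM, and Uqcrc2, a core protein, with 91.6 and 92.2 TPM. The 2 genes overlapped between the libraries. Uqcrc1, the partner core protein, had 31.8 TPM in replicate 1 and 49.9 TPM in replicate 2. Uqcrfs1, the Rieske iron-sulfur protein, had 20.3 and 23.0 TPM, and Uqcrq was lowest with 17.7 and 18.6 TPM. Uqcrc2 over Uqcrc1 was 2.36 ± 0.728 on all transcripts, 1.91 ± 0.261 on counts and 0.748 ± 0.0867 on protein_coding transcripts (SD, n = 2). The last ratio leaves out a 456 nt Uqcrc2 transcript that has no M21 type, with 10.0 and 16.5 TPM. Whether the order of Uqcrc2 and Uqcrc1 turns on coding transcripts may depend on how that transcript is classed. The leading Uqcrc2 transcript, Uqcrc2-202, is a processed transcript of 653 nt with 56.99% and 42.0% of the gene's TPM. Cyc1, the cytochrome c1 gene that the naming rule does not take, had 19.7 ± 0.976 TPM, and the electron carrier Cycs 15.9 ± 2.16 TPM (SD, n = 2).

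Complex IV separated into expressed forms and forms at or near 0. Cox8a had 104 and 108 TPM, Cox6a1 88.8 and 91.0 TPM and Cox6b1 81.7 and 95.5 TPM. The 10 standard nuclear subunits had a median of 74.7 ± 1.77 TPM (SD, n = 2) and ranged from 15.9 to 106 TPM. Their lowest members were Cox7a2, Cox5a and Cox7b. Cox5a and Cox5b, which are present in equal number in the enzyme, had 21.4 ± 1.95 and 75.4 ± 4.94 TPM (SD, n = 2).

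Several complex IV subunits exist as paralogues that other tissues use. Of 7 such restricted forms, 5 were not detected. Cox7b2, Cox8b and Cox8c had no count in either library, Cox4i2 had 0 and 1, and Cox6a2 had 0 and 2. Cox8b and Cox6a2 are the heart and muscle forms, Cox4i2 is known from lung, and Cox8c and Cox7b2 are known from testis. Where no count was seen, up to 3 may have been missed by counting error, which for Cox8b, the shortest of the 5, amounts to 0.374 TPM in replicate 1 and 0.400 TPM in replicate 2. Cox4i1, Cox6a1, Cox7b and Cox8a therefore held 99.96%, 99.93%, 100% and 100% of the TPM of their families.

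The other 2 restricted forms were detected. Cox6b2, known from testis, had 5.59 and 5.64 TPM from 68 and 69 counts, 5.99% ± 0.584 of the Cox6b pair (SD, n = 2). Cox7a1, the heart and muscle form, had 11.3 TPM in replicate 1 and 5.03 TPM in replicate 2, from 91 and 38 counts. The ubiquitous Cox7a2 had 16.4 and 15.3 TPM, and Cox7a2l had 25.9 and 23.0 TPM. Cox7a2l is described as a factor that joins complexes III and IV, and whether it does so in these cells was not tested. Their shares of the family were 50.7% ± 3.30 for Cox7a2l, 33.0% ± 3.37 for Cox7a2 and 16.3% ± 6.67 for Cox7a1 (SD, n = 2). The Cox7a1 share was 21.04% in replicate 1 and 11.6% in replicate 2, the widest spread of the 3. By count, with no division by length, the shares were 66.1% ± 1.07 for Cox7a2l, 28.4% ± 1.46 for Cox7a2 and 5.48% ± 2.53 for Cox7a1 (SD, n = 2). Both sets of shares leave out the pseudogene Gm6969, which matches Cox7a2l at 97.7% identity over 342 aligned bases and had 24.8 and 25.5 TPM. Were its reads given to Cox7a2l, the shares of Cox7a2 and Cox7a1 would be lower. Of the muscle and testis markers, 6 of 6 and 2 of 2 had no count.

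**Figure D2:**
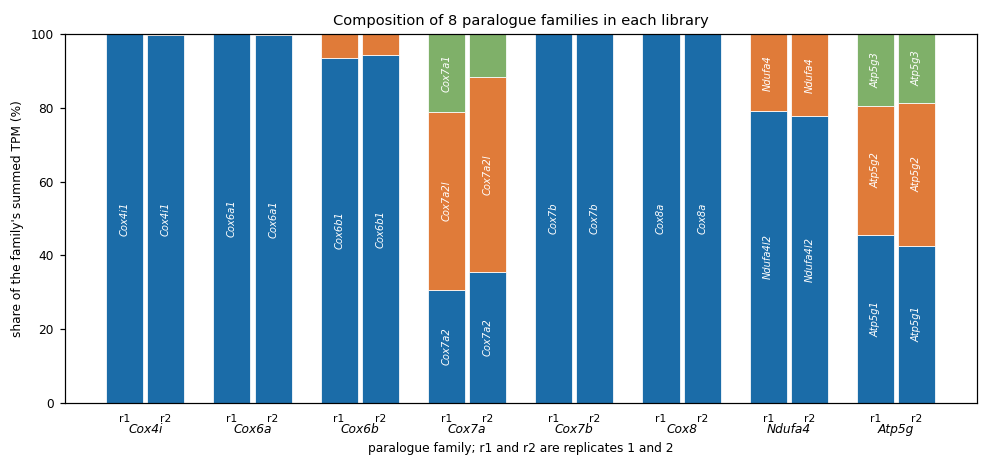
Share of each paralogue in the summed TPM of its family (%, stacked bars), for 8 families and both libraries (r1, r2). Cox4i, Cox6a, Cox7b and Cox8 are filled by a single gene, Ndufa4l2 takes 79.3% and 77.9% of the Ndufa4 pair, and Cox7a and Atp5g are mixtures.

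Many subunit genes have processed copies elsewhere in the genome, and reads from such sequences can be divided between them. At 95% identity or more over 200 or more aligned bases, 20 of the 84 members had 35 copies at other loci. How common such copies are among all nuclear protein-coding genes was not tested. Of the 35 copies 30 are in the tables, 28 of them pseudogenes. Of these 30 copies, 16 had 3 or fewer counts in each library and 9 of those had none. The 28 pseudogene copies together held 1774 and 1782 counts. For 6 members the copies held 10% or more of the joint counts in both libraries: Ndufb4, Atp5l, Ndufs5, Ndufa12, Atp5g2 and Cox7a2l.

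Ndufb4, an accessory subunit of complex I, was assigned 80.4 counts in replicate 1 and 84.7 in the other library, and its processed copy Ndufb4c on chromosome 15 402 and 328. The copy thus held 83.3% and 79.5% of the joint counts and had 44.9 and 39.2 TPM, far more than the 2.86 and 4.05 TPM of Ndufb4. The copy is 100% identical to Ndufb4 over its whole 390 bases, which cover bases 95 to 484 of the 971 nt transcript. A read inside that stretch fits both genes equally, and 581 bases of the transcript lie outside it. The joint counts were 482 and 413, so the low rank of Ndufb4 within complex I depends on how these were divided. Ndufs5, next to it in level, had 62.9 and 41.8 counts, and its chromosome 16 copy BC002163 had 61.1 and 79.2, and the gene held the larger number in replicate 1 but not in replicate 2.

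Windows of 60 coding bases show how little separates such pairs. Among windows without an alignment gap, each is the one with most differences between gene and copy within the coding bases. Differing bases are in capitals (GENCODE M21 transcripts, mm10).
Ndufb4 (chr16:37654300-37654359, minus strand): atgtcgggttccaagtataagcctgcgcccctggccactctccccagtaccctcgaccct
Ndufb4c (chr15:73809837-73809896, minus strand): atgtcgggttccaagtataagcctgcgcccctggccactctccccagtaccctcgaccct
Ndufs5 (chr4:123715975-123716034, minus strand): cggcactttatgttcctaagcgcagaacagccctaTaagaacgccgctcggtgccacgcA
BC002163 (chr16:42955676-42955735, plus strand): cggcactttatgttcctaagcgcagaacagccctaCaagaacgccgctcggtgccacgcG
Ndufa12 (chr10:94199120-94199998, plus strand): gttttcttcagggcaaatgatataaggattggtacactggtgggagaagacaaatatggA
Gm15920 (chr5:130188434-130188493, plus strand): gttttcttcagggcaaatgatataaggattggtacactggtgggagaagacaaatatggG
Cox7a2l (chr17:83502666-83502725, minus strand): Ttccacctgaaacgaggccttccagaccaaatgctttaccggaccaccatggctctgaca
Gm6969 (chr12:24638732-24638791, minus strand): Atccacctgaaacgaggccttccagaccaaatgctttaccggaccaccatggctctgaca
The Ndufa12 window crosses a splice junction, and its copy is continuous. The pairs differ at 0, 2, 2 and 8 positions over all aligned bases, gaps included, in the order shown.

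In the other 3 pairs the gene held more counts than its copy in both libraries. Ndufa12, an accessory subunit of complex I, had 885 and 716 counts beside 448 and 424 for Gm15920, and Cox7a2l had 818 and 688 beside 183 and 175 for Gm6969. Atp5g2 had 916 and 983 counts beside 382 and 550 for Gm10175, a transcribed processed pseudogene on chromosome 7. The Atp5g2 transcript of 441 nt lies wholly within the sequence of this copy at 100% identity. Atp5g2-202, of 731 nt, is longer than the copy of 645 nt and held 428 and 440 counts. How many of these reads came from each locus was not tested.

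**Figure D3:**
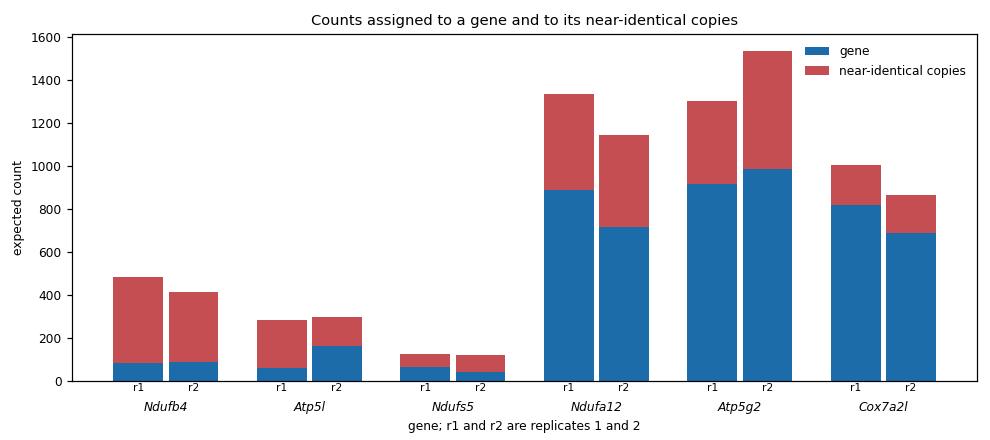
Expected counts of the 6 members whose near-identical copies hold 10% or more of the joint counts, stacked for gene (bottom) and copies (top), in both libraries (r1, r2). For Ndufb4 most of each bar belongs to the copy, and for Atp5l the division differs between the libraries while the bar heights are close.

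The leading transcript of a member held under 60% of its TPM in at least one library for 27 of the 79 detected members, and 24 members have a single transcript. Whether these counts are usual among all detected nuclear protein-coding genes was not tested. In 8 members over 50% of TPM lay on transcripts not annotated as protein_coding in both libraries. This is 10.1% of the detected members, where 12.1% of all detected nuclear protein-coding genes do so. Among them are Atp5b, Atp5j, Uqcrc2, Ndufs3, Ndufa5, Ndufa10 and Ndufc1. Uqcrc2 had 75.2% and 67.0% there, but a transcript without an M21 entry held 10.9% and 17.9% of its TPM. In replicate 2 Uqcrc2 passes 50% only with that transcript counted as not protein_coding. Atp5j, coupling factor 6 of the peripheral stalk, had 84.0% and 88.2% of its TPM on such transcripts, led by the retained-intron form Atp5j-208 with 45.2% and 55.2%. Its protein_coding transcripts held 7.74 TPM on average, out of 55.8 TPM. Ndufs3, a core subunit, had 82.4% and 80.5% of TPM there, and 74.2% and 71.8% of its counts. On counts, 4 members stayed above 50% in both libraries. The median share was 2.98% over the detected members and 7.68% over all detected nuclear protein-coding genes, and 35 members had 0%. For the 24 members with a single transcript, which is protein_coding in each, 0% is fixed by the annotation. What share of all detected nuclear protein-coding genes had 0% was not tested.

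**Figure D4:**
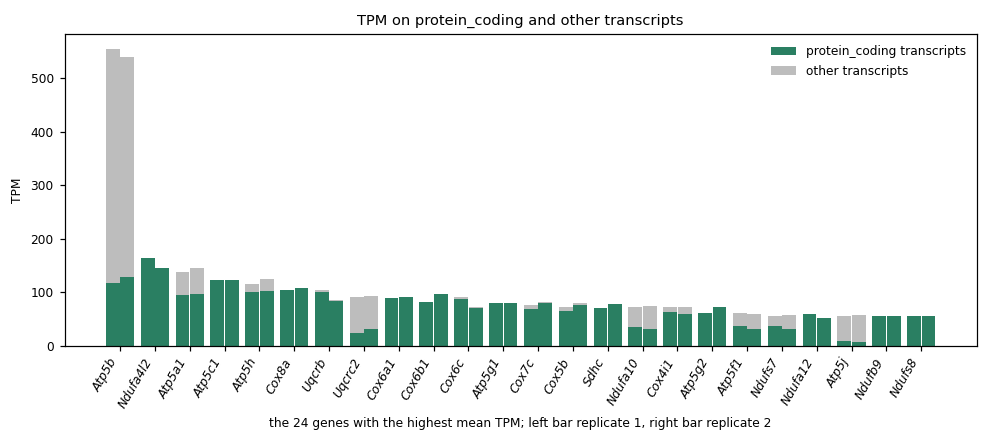
TPM on protein_coding transcripts (green) and on other transcripts (grey) for the 24 members with the highest mean TPM, with replicate 1 left and replicate 2 right for each gene. Most bars are green, while Atp5b, Uqcrc2, Atp5j and Ndufa10 are mostly grey.

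Some isoform choices were the same in both libraries and others were not. Ndufv3, an accessory subunit beside the NADH site, was led by the short form Ndufv3-202 with 68.2% and 65.0% of TPM, while the long form Ndufv3-201 held 23.0% and 28.3%. On counts the long form was larger, with 589 and 559 beside 451 and 328. The leading transcript was not the same in both libraries for Uqcrc1, Ndufv1 and Cox7b. Uqcrc1-201, of 1653 nt, held 56.4% in replicate 1 and 41.1% in replicate 2, while Uqcrc1-206, of 486 nt, held 31.8% and 46.2%. The count of the short form was 122 in replicate 1 and 262 in replicate 2.

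The 2 libraries gave close levels for most members. Pearson's r of log2 TPM over the 79 detected members was 0.977, a description over genes of the same libraries, and 57 members were within 1.2-fold. What share of all detected nuclear protein-coding genes lay within 1.2-fold was not tested. Of 79 members, 2 (2.53%) were 2-fold or more apart, where 1.95% of the 8808 nuclear protein-coding genes at a mean TPM of 1 or more were. Atp5l, a small membrane subunit of ATP synthase, had 4.61 TPM in replicate 1 and 13.1 TPM in replicate 2, from 59.6 and 159 counts. Its copy Gm10221 on chromosome 5, identical over 309 bases, had 223 and 136 counts, so that the copy held 79.0% of the joint counts in replicate 1 and 46.1% in replicate 2. Per nuclear protein-coding count, gene and copy together differed by 0.11 on the log2 scale (replicate 2 over replicate 1), while Atp5l TPM differed by 1.49. Cox7a1 is the other, higher in replicate 1. At 1.5-fold, Uqcrc1 (31.8 and 49.9 TPM) and Ndufs5 (4.70 and 3.04 TPM) are added.

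Counting noise alone did not cover the differences. An exact 95% Clopper-Pearson interval was set around each gene's own split of counts between the libraries. It excluded the overall split for 36 of 79 members (45.6%), and for 45.2% of the 9800 nuclear protein-coding genes that had at least 20 counts in sum. The members' share is thus near the background share. Of the 36, 13 were higher in replicate 2 and 23 in replicate 1, where the 4429 called genes divided into 2302 and 2127. This compares 2 libraries and no condition.

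**Figure D5:**
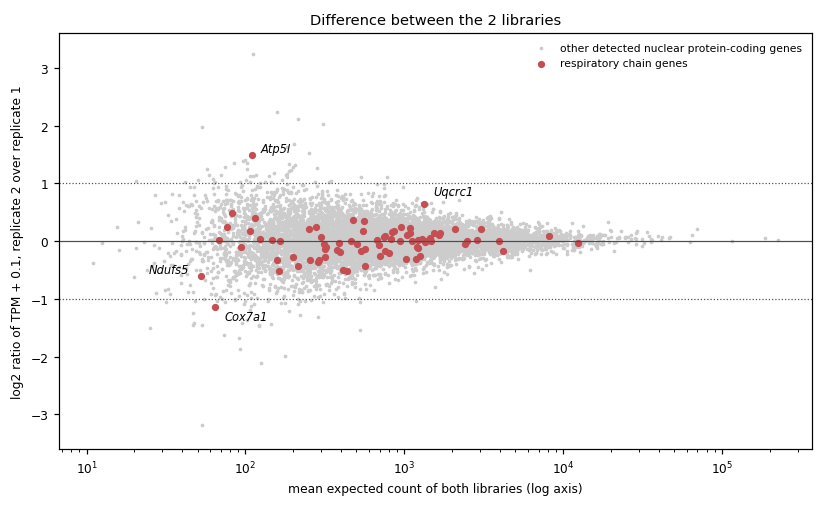
Log2 ratio of TPM + 0.1, replicate 2 over replicate 1, against mean expected count (log axis), for the detected members (red) and the other detected nuclear protein-coding genes (grey); dotted lines mark 2-fold. Members lie within the grey cloud, and the 4 named ones are 1.5-fold or more apart.

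Mitochondrial mRNAs for the same complexes were far more abundant on this scale. The 7 for complex I summed to 21174 ± 584 TPM, 18.2 ± 0.190 times the nuclear genes named for it. The ratio was 17.0 ± 0.207 for complex III, 8.74 ± 0.0761 for complex IV and 12.4 ± 2.91 for complex V (SD, n = 2). The last had the widest spread, and mt-Atp6 had 1559 TPM in replicate 1 and 4948 TPM in replicate 2. Single mRNAs in the other sums also differed between libraries: mt-Nd4l of complex I had 2503 and 581 TPM, and mt-Co2 of complex IV had 8.75 and 19.5 TPM. In the same complex mt-Co1 had 5445 and 5515 TPM. Most of the complex V sum was mt-Atp8, with 13108 and 15849 TPM from 37685 and 41656 counts, while mt-Atp6 had 28887 and 86566 counts. Whether reads of mitochondrial mRNAs were divided with copies at other loci was not tested. The order of the ratios between complexes is therefore not interpreted.

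Genes that build and control the complexes were low or uneven. Of 45 assembly factors and regulators of the 5 complexes, 43 were detected, with a median of 6.14 TPM. Cox17, a copper chaperone for complex IV, had 53.4 ± 9.38 TPM, and Cox20, which handles the Cox2 subunit, 49.0 ± 4.603, while Ndufaf5 had 1.54 ± 0.488 TPM (SD, n = 2). Of 11 transcriptional regulators of respiratory genes, 9 were detected. Gabpa, the ETS-family subunit of NRF2, had 35.6 ± 1.52 TPM, Yy1 31.5 ± 2.47 and Nrf1 11.5 ± 0.601 TPM (SD, n = 2). The coactivator Ppargc1a had 0 and 1 counts, Esrrg had none, and the related Pprc1 had 22.8 ± 1.43 TPM.

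Promoters were read for 68 members from RefSeq windows of 300 bases, 250 before the start and 50 after it (GRCm38.p6). Each motif was searched as exact letters on both strands. The NRF1 motif, a palindrome of 10 bases that is spelled out in capitals in the Cox6a1 window printed here, was in 5 of 68 (7.35%), in 2.84% of 7042 genes detected here and in 1.07% of all 27025 genes with a window. The ETS core CCGGAAG was in 16 (23.5%), in 25.3% of detected and in 9.93% of all genes. The YY1 motif AAGATGGC was in 10 (14.7%), in 6.62% of detected and in 3.19% of all genes. The estrogen-related receptor motif TCAAGGTCA was in 2 (2.94%), against 0.270% and 0.466%, and the GATA motif AGATAAG in 0, against 2.30% and 3.50%. Of the 68, 39 held none of the 5 motifs. A match is a description of letters only.

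The promoters of the highest members with an NRF1 and with an ETS match show where the motif stands, in capitals, in a window written on the strand of the gene. Cox6a1 (89.9 ± 1.56 TPM) also has an ETS match in its window, which is not marked, and Atp5h has 121 ± 6.63 TPM (SD, n = 2).
Cox6a1 promoter, NRF1 motif (chr5:115348909-115349208, minus strand): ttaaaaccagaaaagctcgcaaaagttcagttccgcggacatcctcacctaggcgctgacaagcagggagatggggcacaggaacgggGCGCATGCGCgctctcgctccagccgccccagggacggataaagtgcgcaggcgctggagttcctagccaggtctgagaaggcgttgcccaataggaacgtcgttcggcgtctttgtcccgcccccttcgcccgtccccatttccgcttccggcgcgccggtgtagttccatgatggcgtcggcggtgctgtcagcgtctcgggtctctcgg
Atp5h promoter, ETS core (chr11:115419870-115420169, minus strand): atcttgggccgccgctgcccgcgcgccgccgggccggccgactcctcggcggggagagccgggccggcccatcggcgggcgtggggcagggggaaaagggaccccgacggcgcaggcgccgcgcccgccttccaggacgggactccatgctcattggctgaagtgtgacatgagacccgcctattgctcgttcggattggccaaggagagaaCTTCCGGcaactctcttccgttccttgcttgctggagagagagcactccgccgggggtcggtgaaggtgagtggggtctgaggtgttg
In Atp5h the match is on the opposite strand.

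Several members start back to back with another gene. Within 1000 bp, 19 of the 79 detected members (24.1%) have a protein-coding neighbour that starts in the other direction, where 13.2% of all detected nuclear protein-coding genes do. Ndufa7, an accessory subunit of complex I, starts 10 bp from the ribosomal protein gene Rps28, with 32.9 ± 8.29 TPM beside 98.5 and 95.7 TPM for Rps28. Sdhd starts 98 bp from Timm8b, a gene for import of mitochondrial proteins, with 28.9 ± 1.97 TPM beside 27.0 and 26.8 TPM for Timm8b (SD, n = 2). Atp5h starts 166 bp from Kctd2, with 121 ± 6.63 TPM (SD, n = 2) beside 2.08 and 3.09 TPM for Kctd2. The levels of such pairs were thus close in some cases and far apart in others.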

How the data were processed

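The series holds gene and transcript tables for 2 libraries, used here with assembly mm10 per the labels. The annotation, per the deposited documentation, was GENCODE M4, and aligner and quantifier are not given in the sources used. As deposited, an expected count is the authors' estimate of the reads of a gene. The authors scaled the deposited TPM and posterior mean TPM so that all entries add up to one total, and the deposited FPKM by effective length and depth. The deposited transcript shares are percent of a gene's TPM. Effective length was 119 nt (replicate 1) and 123 nt (replicate 2) below length, which weighs on short genes.

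Genes were named by identifier without version from GENCODE M21. The members and the lists were chosen with earlier results of these data known. Values are mean ± SD (n = 2), with no p-value, since there is no contrast. Log2 ratios used a pseudocount of 0.1. Expected counts, rounded to whole numbers, were split between libraries with exact 95% intervals, tested on simulated data; TMM (edgeR 4.0.16) and median-of-ratios factors (DESeq2 1.42.0, R 4.3.3) were alternatives. Transcript types follow M21, and transcripts without an M21 entry count as not protein_coding. Copies were found with BLAST+ 2.17.0 among M21 transcripts. Other steps ran in Python 3.11.15 with scipy 1.17.1, numpy 2.4.6, pandas 2.3.3 and matplotlib 3.10.9. Named genes were the 3 highest and 2 lowest of each complex, paralogue families, members that were not detected, 1.5-fold or more apart between libraries or without a clear leading transcript, in part by count; Atp5d, Atp5j2, Atp5mpl, Cox5a and Cox5b were named after their values were seen. Some results are not reported here. No molecular identifiers are described, so intervals and floors cover counting error only.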

Additional observations from a re-analysis of the deposited data

How the results depend on the processing

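The counts of detected members, of members apart between libraries and of split transcripts stayed within 1.5 times the reported count under the alternatives run. Each value without replicate 1 or without replicate 2 is that of the other library, and such values were close for the complex sums but not for all genes: the Cox7a1 share was 11.6% without replicate 1 and 21.04% without replicate 2. No paired analysis was possible because the series has a single group. The values below are summed TPM of complexes I, II, III, IV and V unless stated. FPKM gave 765, 103, 248, 455 and 942, with a median of 21.1 over all members. TPM rescaled over nuclear protein-coding genes gave 5109, 685, 1653, 3035 and 6287, with a median of 141. Posterior mean TPM gave 370 for III, 682 for IV and 1402 for V. Without restricted and non-structural members, I was 1008, IV 653 and the median 36.6. Without members under 400 nt, I was 1062, IV 683 and V 1388. With pseudogene copies added, I was 1265, IV 723, V 1485 and the median 33.9. A further pair of alternatives was chosen after seeing the data. Protein_coding transcripts alone gave 943, 137, 279, 653 and 853, with a median of 22.6, and counting the Ndufa4 pair with complex IV gave 966 for I and 888 for IV. The order V, I, IV, III, II held in all of these except on protein_coding transcripts alone, where I led, and except that with the Ndufa4 pair moved only I and IV were compared. On counts the Ndufa4l2 share was 89.2% and the Cox7a2 share 28.4%. Posterior means gave shares of 99.8% for Cox4i1, 93.0% for Cox6b1, 99.7% for Cox7b and 99.8% for Cox8a. Members over 50% on transcripts not protein_coding numbered 4 on counts. Members with a copy numbered 13 at 98% identity over 200 bases and 36 at 90% over 150 bases. Depth limits the lowest members: Atp5e, Atp5k, Atp5l, Cox6b2, Cox7a1, Ndufs5 and Ndufb4 rest on fewer than 100 counts in a library.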
